A study of Drosophila melanogaster with 6 samples.

Results

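The genes described here are the chemosensory receptor and channel genes of *Drosophila melanogaster*, namely the gustatory receptors (*Gr*), the odorant receptors (*Or*, with the co-receptor *Orco*), the ionotropic receptors (*Ir*) and the pickpocket channels (*ppk*). They were chosen by symbol alone, as every gene whose symbol starts with *Gr*, *Or* or *Ir* followed by a digit, *Orco* itself, or *ppk*. This gave 216 of the 17489 genes in the tables, made up of 60 *Gr*, 61 *Or*, 66 *Ir* and 29 *ppk* genes, 7 of them annotated as pseudogenes. The libraries came from heads of male *Gr5a:Pclc429>UAS-Rpl3-3XFLAG* flies, so that both groups carried the *Pcl* c429 mutation and both expressed the FLAG-tagged ribosomal protein RpL3 under the *Gr5a* driver, which is meant to mark the sweet-sensing cells. The diet lasted 7 days, from adult day 5 to day 12, and held 5% sucrose in the control group (Pcl_CD, here CD) or 30% sucrose in the sugar group (Pcl_SD, here SD). There were 3 libraries per diet, each pooled from 300 heads. Tagged ribosomes were purified with their mRNA, although the fraction that was sequenced is not given library by library.

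Gustatory receptors are membrane proteins of taste neurons that detect sugars, bitter compounds and, in the antenna, carbon dioxide. Odorant receptors form ion channels with the shared subunit Orco, and each olfactory neuron usually carries a single ligand-binding receptor beside it. Ionotropic receptors derive from glutamate-gated channels and work with broadly used co-receptors in smell, taste, humidity and temperature sensing. Pickpocket genes encode channels of the degenerin and epithelial sodium channel family, with members that serve water taste, contact pheromones and nociception. Since each sensory neuron class of the fly uses few of these receptors, most of them are transcribed in small numbers of cells.

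Sense-strand counts assigned to genes totalled between 12617127 and 24076315 per library. Control diet replicate 2 was the shallowest library and control diet replicate 1 the deepest. Replicate 2 also stood apart in the yolk protein gene *Yp1*, with 21750 normalized counts against 117 and 2363 in the other control diet libraries and 19.4 to 44.6 on sugar. A count of 3 was taken as the floor of detection, equal to between 0.125 and 0.238 counts per 1000000 sense counts (CPM), and this floor covers counting error only. Over all libraries the receptor genes received 12595 counts, of which 83.2% fell on 29 genes whose normalized counts averaged at least 10. Counts divided by DESeq2 size factors are called normalized counts.

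Receptor transcripts were rare in these libraries and only a minority of the genes were detected. On the control diet, 37 receptor genes were over 3 counts in all 3 libraries, namely 6 *Gr*, 10 *Or*, 12 *Ir* and 9 *ppk* genes. On the sugar diet the number was 39, with 7 *Gr*, 9 *Or*, 13 *Ir* and 10 *ppk* genes. By family the share detected in all 6 libraries was 3.33% for *Gr*, 14.75% for *Or*, 18.18% for *Ir* and 24.14% for *ppk*. Over all receptor genes it was 13.89%, against 58.71% of all genes in the tables.

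Detection of receptors was close on the 2 diets, while detection over all genes was higher on sugar. Among all genes, 59.58% were over the floor in every control diet library and 70.44% in every sugar diet library, and the shares for receptors were 17.13% and 18.06%. Receptors over the floor in all control diet libraries but not in all sugar diet libraries numbered 7 of 216 (*Gr39a*, *Gr61a*, *Gr77a*, *Gr8a*, *Or67d*, *ppk21* and *ppk25*), against 152 of all 17489 genes, a larger share. Those that met the opposite condition numbered 9 of 216 (*Gr33a*, *Gr47a*, *Gr64f*, *Gr66a*, *Gr98a*, *Ir31a*, *ppk10*, *ppk16* and *ppk22*), against 2051 of all 17489 genes, a smaller share. These counts carry no test, and genes close to the floor can enter and leave them by sampling alone.

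**Figure D1:**
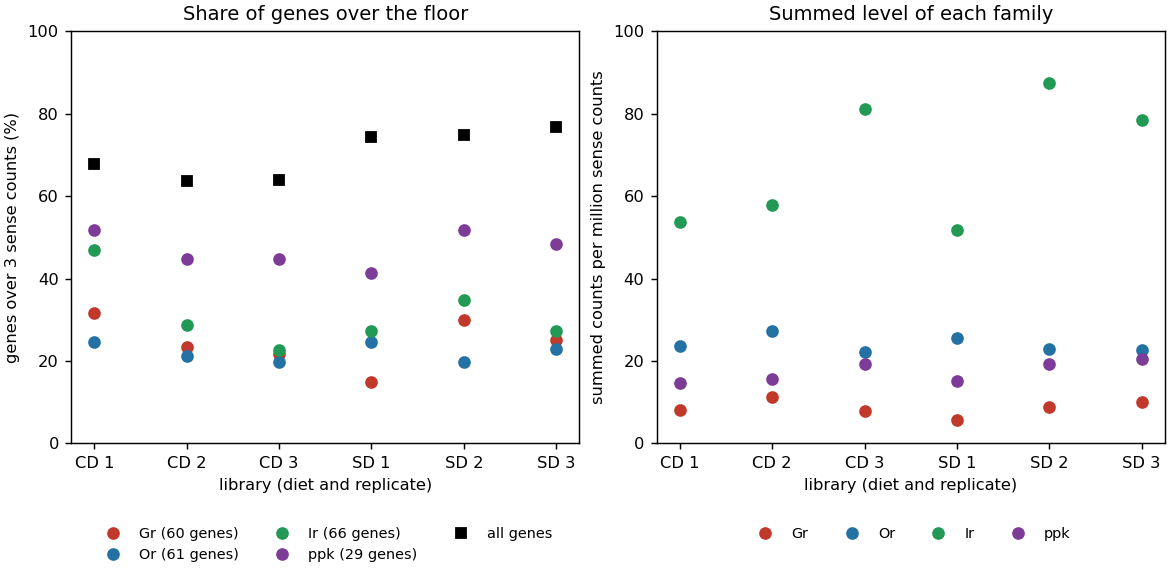
Each point is 1 library, with diet (CD, control; SD, sugar) and replicate on the horizontal axis. The left panel gives the percentage of genes over 3 sense counts for each receptor family and for all genes, and the right panel the summed CPM of each family. All-gene points lie above those of every family, and the *Ir* family has the highest summed level in all 6 libraries, between 51.7 and 87.5 CPM.

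The number of receptors over the floor varied as much within a diet as between diets. It was 80, 59 and 53 in the CD libraries and 54, 68 and 61 in the SD libraries, in order of replicate number here and throughout. The deepest library thus had the most detected receptors, but the shallowest, CD replicate 2, had more than CD replicate 3 and SD replicate 1. The ranges of the 2 diets overlapped. For the *Gr* family, the numbers were 19, 14 and 13 on CD and 9, 18 and 15 on SD. Summed levels overlapped between diets in each family, from 5.64 to 11.2 CPM for *Gr*, 22.3 to 27.3 for *Or*, 51.7 to 87.5 for *Ir* and 14.7 to 20.4 for *ppk*. Within a family, few genes carried these sums. The 5 genes with the most counts held 38.6% of *Gr* counts, 74.8% of *Or*, 72.7% of *Ir* and 65.8% of *ppk* counts.

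No library put 97 of the receptors over 3 counts (29 *Gr*, 35 *Or*, 28 *Ir* and 5 *ppk*), and 18 genes were listed at 0 in all 6 libraries. These 18 were *Gr10a*, *Gr22d*, *Gr57a*, *Gr58a*, *Gr59c*, *Gr64b*, *Gr64c*, *Gr64d*, *Gr64e*, *Gr68a*, *Or10a*, *Or19a*, *Or23a*, *Or98P*, *Ir60c*, *Ir75d*, *Ir7d* and *Ir7e*. For 8 of them the annotation has exon overlap with another gene on the same strand, as for *Gr10a* with *Or10a*, *Gr64b* with *Gr64c*, *Gr64d* with *Gr64e*, *Ir75d* with *COX6AL2* and *Or23a* with *Prosbeta4R2*. The table layout keeps reads that fall in several genes out of the gene rows, and the annotation release behind the counts is not given, so zeros of genes that overlap over most of their exons are uncertain. The overlap was short for *Or23a*, at 69 of 1363 bp. In all, 15 receptors had same-strand exon overlap. *ppk11* and *ppk16* share all 3212 bp of exon in the annotation used here and still received counts, with means of 2.13 and 9.21 normalized counts, so their split between the 2 genes is uncertain too.

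The 30 receptors over the floor in all 6 libraries were *Gr28b* and *Gr32a*, 9 *Or* genes (*Or1a*, *Or13a*, *Or42a*, *Or43b*, *Or45b*, *Or59b*, *Or63a*, *Or71a* and *Orco*), 12 *Ir* genes (*Ir25a*, *Ir40a*, *Ir41a*, *Ir47a*, *Ir47b*, *Ir62a*, *Ir68a*, *Ir75a*, *Ir75b*, *Ir76a*, *Ir76b* and *Ir100a*) and 7 *ppk* genes (*ppk*, *ppk8*, *ppk23*, *ppk26*, *ppk27*, *ppk28* and *ppk29*). Some of them lie next to or inside other transcribed genes. Of these 30 genes, 11 (36.67%) lay within the span of a same-strand gene outside the 4 families or at most 500 bp downstream of one. The same held for 14 of the 89 genes over the floor in 1 to 5 libraries (15.73%) and for 8 of the 97 never over it (8.25%). Many receptor genes also lie close to each other. With receptor genes at most 500 bp upstream counted as well, among them *Ir75b* upstream of *Ir75a* and *Ir75c* upstream of *Ir75b*, the numbers were 13 (43.33%), 24 (26.97%) and 29 (29.9%), and the shares no longer fell in order. *Ir62a* lies in *Iml1*, *Ir47a* and *Ir47b* in *SLO2*, *Or71a* in *Plp*, *ppk27* in *CG32264* and *Or1a* in *CG3777*. Downstream neighbours of another gene were *Ir25a* (35 bp after *tank*), *Or43b* (171 bp after *Kdm4A*), *Ir68a* (282 bp after *lncRNA:CR44718*), *Ir76a* (299 bp after *SREBP*) and *ppk28* (314 bp after *CG13005*). Mean normalized counts of these other genes ran from 13.6 for *lncRNA:CR44718* to 9640 for *CG32264*. The part of intronic or read-through reads from them in the receptor counts was not tested.

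Levels were compared between genes per length, as CPM for each kilobase of exon. *Ir75a* (FBgn0036757; chromosome 3L, 17815570 to 17817921), a receptor for acetic acid in the antenna, had the highest mean level of all receptors at 7.67. Next to it on the same strand, *Ir75b* (FBgn0261402; 3L, 17818073 to 17820193), a receptor for other short-chain acids, had 7.06. The other leading *Ir* genes were *Ir76a* at 4.54, *Ir62a* at 3.05 and the co-receptor *Ir76b* at 2.90. Among *Or* genes, the antennal receptor *Or43b* led with 4.83, followed by the maxillary palp receptors *Or42a* (2.39) and *Or71a* (2.03), then *Or63a* (1.77) and *Orco* (1.10). Pickpocket genes were led by the water channel gene *ppk28* at 1.69, followed by the pheromone channel genes *ppk29* and *ppk23* at 1.31 and 1.13, *ppk27* at 1.09 and the nociceptive channel gene *ppk* at 0.536. The *Gr* family had the lowest leading level of the 4 families, that of the bitter receptor gene *Gr32a* at 0.634, then *Gr61a* at 0.379, *Gr77a* at 0.293, *Gr66a* at 0.243 and *Gr64a* at 0.239.

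**Figure D2:**
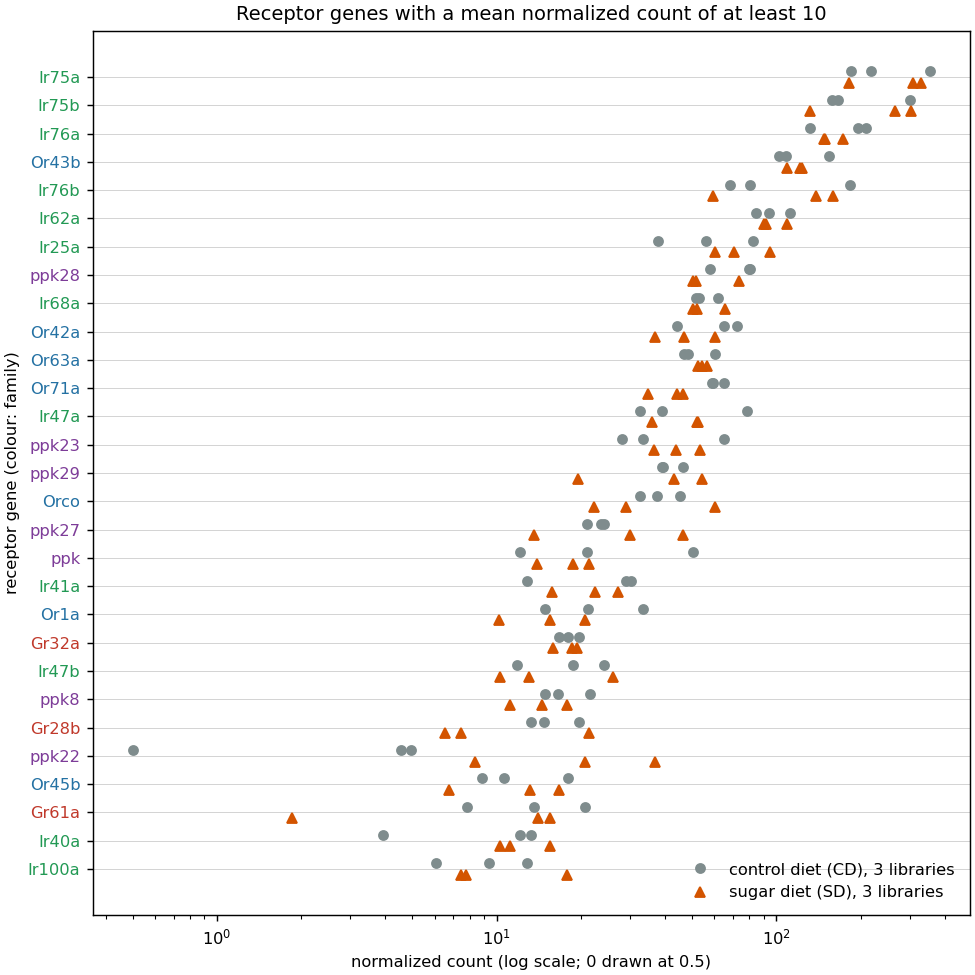
Normalized counts of the 29 receptor genes that averaged at least 10, on a log scale, with 3 control diet libraries as circles and 3 sugar diet libraries as triangles for each gene. The label colours give the family (red *Gr*, blue *Or*, green *Ir*, purple *ppk*), and normalized counts are not divided by gene length. Circles and triangles overlap in 27 of the 29 genes, the exceptions being *ppk22* and *Or71a*. *ppk22* averaged at least 10 only through its sugar diet values.

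To ask whether the sugar diet altered receptor mRNA in *Pcl* mutants, the 3 sugar diet libraries were compared with the 3 control diet libraries in a DESeq2 fit over all genes. Of the 114 receptors that received an adjusted p-value (q), 1 differed at q under 0.1, the pickpocket gene *ppk22*, which was higher on sugar. That is 0.877% of the receptors tested, where the same rule called 14.5% of the 14254 genes tested, 14.0% higher and 0.54% lower. With the edgeR quasi-likelihood test, which called 12.5% of 16134 genes, the 1 receptor called was again *ppk22*. At an unadjusted p under 0.05, 3 of 198 fitted receptors passed in DESeq2 (*ppk22*, *Gr98a* and *ppk6*) and 4 in edgeR (the same genes and *Or59c*). Over all genes, 16.3% passed in DESeq2 and 2949 of 16134 in edgeR. A further 84 receptors with counts received no q from DESeq2 because of their low means, at most 1.33 normalized counts. In bulk RNA, fewer cells of a type and less RNA per cell cannot be told apart.

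Low counts limit this comparison for most receptors, also among those with higher counts. Of the 29 receptors with a mean of at least 10 normalized counts, 1 was called, where 14.7% of all genes over that mean were. The other 28 had log2 fold changes between −0.64 and 0.39. The called gene, *ppk22*, reached that mean only through its sugar diet values, since its control diet counts lay near the floor. Receptors over that mean were measured less precisely than other genes over it, with a median standard error of 0.47 against 0.20, so the background share is not matched for precision. Groups did not overlap in *ppk22* and *Or71a* among the 29, and did not overlap in 25.4% of all genes over that mean. Over all members with counts, groups did not overlap in 7 receptors that were higher on sugar (background 18.1% of genes) and 6 that were lower (background 6.02%), and 11 of these 13 had means under 10.

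**Figure D3:**
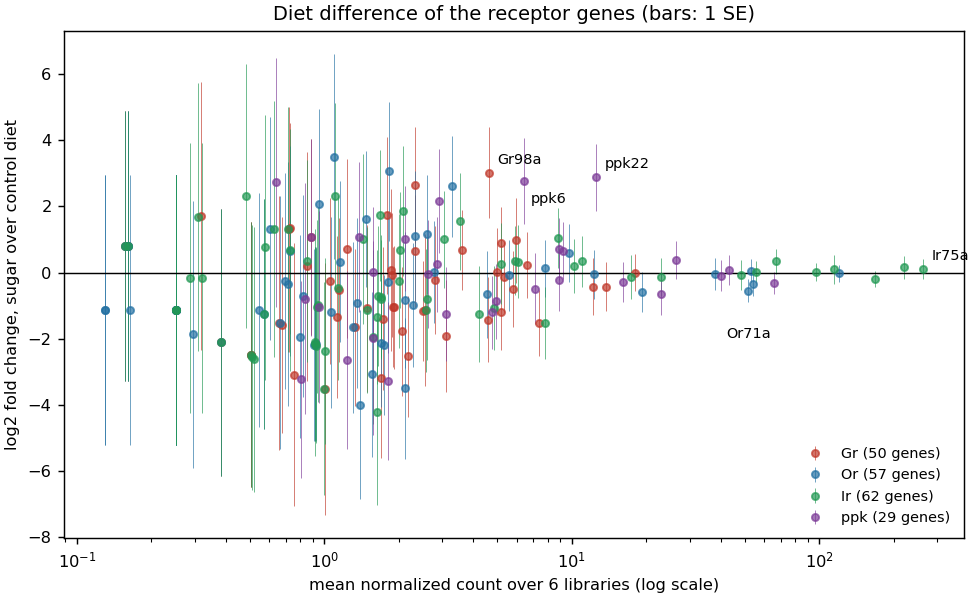
The log2 fold change of each fitted receptor gene (sugar over control diet) against its mean normalized count over 6 libraries on a log axis, with bars of 1 standard error and colours for the families. The spread is wide at means under 10 and narrow above, with *ppk22* (2.88 ± 1.03) standing away from 0 at a mean of 12.5. That mean comes mainly from its sugar diet libraries.

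The median log2 fold change over the 198 fitted receptors was −0.32, against 0.01 for all 16134 fitted genes. Of these receptors 122 were lower and 76 higher, where 7725 of all fitted genes were lower and 8409 higher. By family the median was −0.46 for *Gr*, −0.71 for *Or*, −0.14 for *Ir* and −0.09 for *ppk*. The median standard error of a single receptor was 2.17. Without control diet replicate 2, the median over receptors was −0.02. In that library 53 receptors had exactly 1 count, against 21 to 30 in each of the others. Over all genes it also had the most with exactly 1 count, 1294 against 571 to 1004. Of the fitted receptors, 39 were at 0 in all libraries of 1 diet, so that their fitted values depend on the model. With the floor of 3 counts in place of the 0, and leaving out 31 whose other diet also summed to 3 counts or fewer, the median over 167 receptors was −0.25. Over the 29 receptors with a mean of at least 10 it was −0.04, against −0.01 for all genes over that mean.

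*ppk22* (FBgn0051105; dm6 chromosome 3R, 24857585 to 24859801, minus strand) had 0, 3 and 5 counts on CD and 9, 22 and 38 on SD. In normalized counts this was 3.15 ± 2.74 on CD and 21.9 ± 14.3 on SD (mean ± standard deviation, n = 3 each). All sugar diet libraries were above all control diet libraries, and the sugar diet libraries also differed widely from each other. The log2 fold change was 2.88 ± 1.03 (SE; 95% interval 0.87 to 4.89; DESeq2 q = 0.0392, edgeR q = 0.0959). This call did not survive the loss of control diet replicate 1 (DESeq2 q = 0.186), sugar diet replicate 2 (q = 0.251) or sugar diet replicate 3 (q = 0.533). With a filter of 10 counts in 3 libraries, *ppk22* was not fitted.

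The neighbourhoods of *ppk22* and of the *Gr98a* and *ppk6* genes described next were examined after their values were seen. *CAH4*, which encodes a carbonic anhydrase, starts 26 bp downstream of *ppk22* on the same strand. It had 1, 0 and 0 counts on CD and 26, 9 and 38 on SD. With 1 count against 73, the ratio of normalized counts was 68 (95% counting interval 11.8 to 2722), and *CAH4* was higher on sugar at DESeq2 q = 5.01e-04. Both genes were thus highest in sugar diet replicate 3, while replicate 1 was higher than replicate 2 for *CAH4* and lower for *ppk22*. On the other side, 99 bp upstream, *CG13639* had 4, 6 and 3 counts against 11, 7 and 12, and its log2 fold change was 0.97 ± 0.95 (SE, q = 0.766 in DESeq2). Whether reads of neighbouring transcripts contribute to the *ppk22* counts was not tested.

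Markers of other tissues also moved with diet in these libraries. Over all genes tested, 14.0% were called higher on sugar and 0.54% lower. All 12 accessory gland genes on the marker list were called higher on sugar, with summed normalized counts of 60.2, 9.07 and 14.8 on CD and 1572, 1551 and 4328 on SD. Of 20 testis germline genes, 15 were called higher. The 19 of them other than the broadly abundant *bol*, which was set aside after its values were seen, summed to between 375 and 443 on CD and to 2601, 3843 and 7139 on SD. Of 12 midgut protease and amylase genes, 7 were called higher, with sums of 261 to 1085 on CD and 2398 to 6443 on SD, and *deltaTry* was listed at 0 in all 6 libraries. For each of these lists the highest sum was in sugar diet replicate 3, as for *ppk22*. Their part in the *ppk22*, *Gr98a* and *ppk6* values was not tested. In contrast, no neuronal marker out of 5 was called, and the sums of that list overlapped between diets (78000 to 92470). For *elav* and *nSyb* of that list, all sugar diet values lay below all control diet values (background 6.02% of genes). Nor was any of 8 photoreceptor or 5 muscle genes called. For *trp*, *norpA*, *Arr2* and *Act88F*, though, all sugar diet values lay below all control diet values (background 6.02% of genes). Of 5 glial genes, 1 (*alrm*) was called lower. Sugar diet values of *alrm* and *moody* all lay below their control diet values. Of 7 fat body genes, 6 received a q and 3 were called lower. The 3 called fat body genes were *Yp1*, *Yp2* and *Yp3*, which encode yolk proteins and are typical of female fat body, although the flies are labelled male. *Lsp2*, the fat body gene without a q, split each diet. Its normalized counts were 10960, 10070 and 84.7 on CD and 10700, 49.7 and 38.7 on SD.

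*Gr98a* (FBgn0039520; 3R, 27487927 to 27489968, plus strand), a gustatory receptor gene, had 2, 1 and 0 counts on CD and 9, 6 and 11 on SD. The groups did not overlap, yet the control diet libraries were all at or under the floor. The summed counts of 3 and 26 gave a ratio of 8.07 after scaling (95% counting interval 2.47 to 41.7), and the log2 fold change of 3.02 ± 1.38 (SE) did not pass (DESeq2 q = 0.173). In unstranded counts its log2 fold change was 0.74. The nearest upstream gene on its strand, *Cyp6a18*, a cytochrome P450 gene 5023 bp away, had 3, 0 and 3 counts against 54, 44 and 116 and was higher on sugar (DESeq2 q = 8.96e-09).

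*ppk6* (FBgn0034489; 2R, 20245760 to 20247624, minus strand) had 3, 1 and 1 counts on CD and 2, 7 and 26 on SD. Its groups overlapped, and sugar diet replicate 3 held most of the counts. The log2 fold change was 2.77 ± 1.30 (SE, q = 0.197 in DESeq2), and it was 1.36 without that library. Without sugar diet replicate 1 the gene passed (q = 0.0685). *Hacl*, 372 bp downstream on the same strand, had a log2 fold change of 0.16 ± 0.17 (SE). *CG9864*, 506 bp upstream, had 35.9, 30.2 and 31.5 normalized counts on CD against 38.1, 45.9 and 52.3 without overlap, and a log2 fold change of 0.47 ± 0.40 (SE, q = 0.692 in DESeq2).

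**Figure D4:**
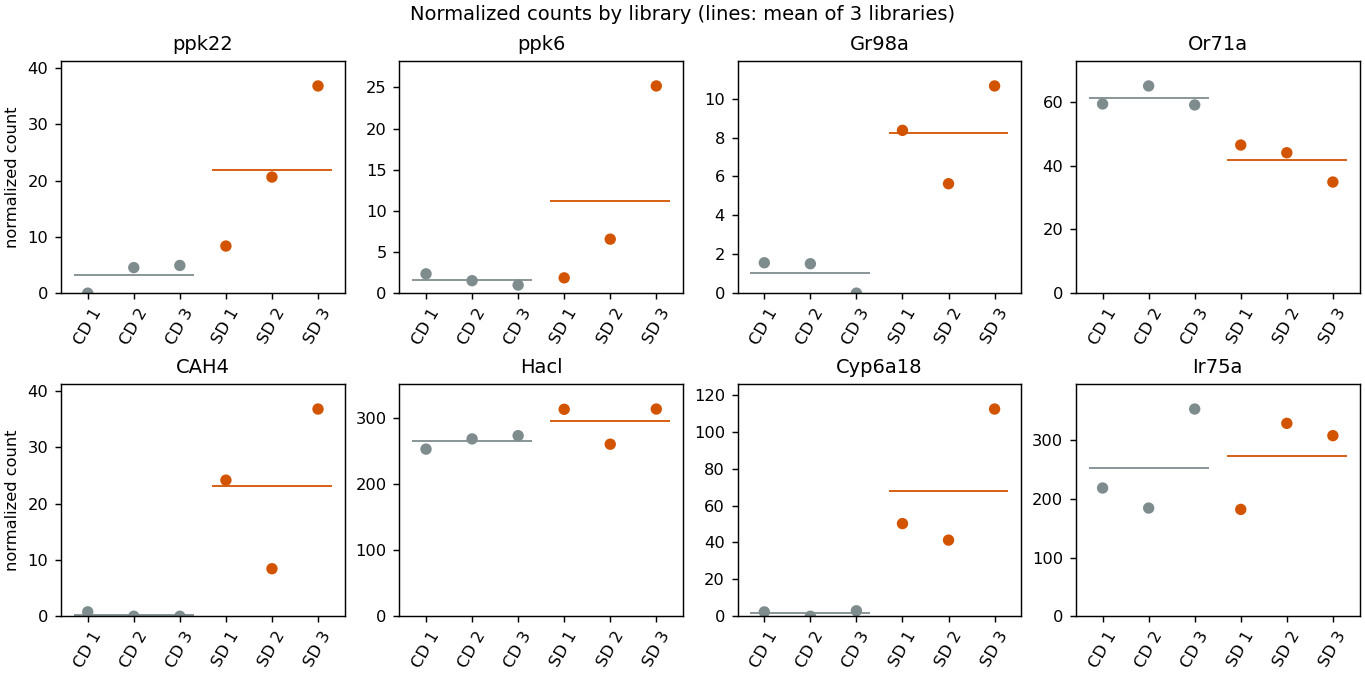
Normalized counts in each library (grey, control diet; orange, sugar diet; lines, mean of 3) for *ppk22*, *ppk6*, *Gr98a*, *Or71a* and *Ir75a* and for same-strand neighbours of the first 3, *CAH4*, *Hacl* and *Cyp6a18*. The vertical scales differ and start at 0. *ppk22* reached 36.8 and *ppk6* 25.2 in sugar diet replicate 3, and *CAH4* and *Cyp6a18* were also highest there.

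*Or71a* (FBgn0036474; 3L, 15076907 to 15078447, minus strand), a maxillary palp receptor for phenolic odours, was the only receptor with a mean of at least 10 whose sugar diet values all lay below the control diet values. Normalized counts were 59.4, 65.0 and 59.1 on CD and 46.5, 44.1 and 34.9 on SD. The log2 fold change of −0.54 ± 0.35 (SE; 95% interval −1.23 to 0.14) did not pass (DESeq2 q = 0.480). The gene lies in the span of *Plp*, a centrosomal protein gene with a mean of 4453 normalized counts and a log2 fold change of −0.08. Apart from *ppk22*, the other receptors without overlap had at most 30 summed counts in a diet, for example *Gr77a* with 11, 11 and 8 counts against 6, 1 and 5, and *Or59c*, also of the palp, with 2, 0 and 1 against 3, 6 and 9. Neither passed (DESeq2 q = 0.499 and 0.406).

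The sweet receptor genes are those by which the profiled cells are named, and their counts were few on both diets. *Gr5a*, which encodes a receptor for trehalose and whose promoter drives the tag, had 6, 0 and 10 counts on CD and 2, 4 and 10 on SD. The groups overlapped, and the log2 fold change of 0.03 ± 1.32 (SE) had a 95% interval from −2.56 to 2.63. *Gr64f*, a co-receptor of sweet neurons, had 3, 5 and 7 counts against 4, 8 and 4. *Gr64a*, a receptor for several sugars, had 4, 2 and 6 counts against 0, 12 and 13. *Gr61a*, a glucose receptor gene, had the most counts of the list with 10, 9 and 21 against 2, 15 and 16. For the fructose receptor gene *Gr43a* they were 16, 1 and 6 against 2, 1 and 5. None of the 5 passed (DESeq2 q between 0.733 and 0.999), and the remaining 4 of the list of 9, *Gr64b* to *Gr64e*, were listed at 0. Summed over the list, counts were 39, 17 and 50 on CD and 10, 40 and 48 on SD, so that sugar diet replicate 1 was the lowest and the ranges overlapped. At this depth, even a several-fold difference in *Gr5a* was not detectable.

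Receptors of other cell types were present at similar or higher counts. *Gr32a*, a bitter and pheromone receptor gene, had 23, 13 and 17 counts on CD and 20, 17 and 20 on SD, more than *Gr5a* in every library. Its log2 fold change was −0.01 ± 0.56 (SE, q = 0.999 in DESeq2), and in unstranded counts, where *CG6230* overlaps it on the other strand, it was 0.34. *Gr66a*, which marks bitter neurons, had 11, 1 and 8 counts against 5, 10 and 8, and *Gr33a*, a bitter co-receptor gene, 4, 4 and 2 against 4, 9 and 8. Of the 12 bitter receptors, 9 received a q and none passed. The list summed to between 40 and 65 counts on CD and between 40 and 63 on SD. The photoreceptor list, 8 genes led by the rhodopsin gene *ninaE*, summed to between 542500 and 789500 normalized counts, above the 78000 to 92470 of the neuronal list. Photoreceptor transcripts were thus abundant in these libraries, and no input library was analysed here. Both carbon dioxide receptor genes were near the floor, *Gr21a* with 4, 4 and 2 counts against 1, 0 and 1 and *Gr63a* with 6, 0 and 1 against 1, 4 and 1.

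Of the 5 co-receptor genes, 3 were over the floor in every library, and none was called. *Orco*, needed by nearly all odorant receptors, had normalized counts of 37.5, 45.4 and 32.5 on CD and 60.4, 29.1 and 22.3 on SD. Both the highest and the lowest library were on sugar, and the log2 fold change was −0.04 ± 0.49 (SE; 95% interval −1.01 to 0.93; DESeq2 q = 0.996). *Ir25a*, the most widely used ionotropic co-receptor, had 56.2, 37.8 and 82.7 against 60.4, 94.7 and 70.7, with a log2 fold change of 0.34 ± 0.38 (SE, q = 0.822 in DESeq2). *Ir76b*, the co-receptor of taste and amine-sensing neurons, had 80.5, 68.0 and 183 against 59.5, 159 and 139. Its values split each diet, since CD replicates 1 and 2 and SD replicate 1 lay well under the other libraries. *Ir8a* and *Ir93a*, which serve acid sensing and humidity or temperature sensing, were close to the floor, with 15, 4 and 0 counts against 2, 4 and 2 and with 2, 1 and 3 against 9, 1 and 3.

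The same 3 libraries were the lowest for *Ir75a* and *Ir75b*, the receptor genes with the highest level. They were also the 3 libraries with high *Lsp2* counts, and whether these patterns are related was not tested. Normalized counts of *Ir75a* were 219, 185 and 353 on CD and 182, 329 and 308 on SD. For *Ir75b* they were 159, 166 and 301 against 132, 302 and 266. Both genes thus varied more within each diet than between the diets, and neither passed (log2 fold change 0.11 ± 0.29 and 0.16 ± 0.34, SE; DESeq2 q = 0.960 and 0.943). *Ir76a*, next in level within the *Ir* family, did not follow them, with 132, 209 and 196 against 150, 173 and 148. *Ir31a*, an antennal receptor gene, had 5, 3 and 9 counts against 22, 7 and 9. The humidity receptor genes *Ir68a* and *Ir40a* had log2 fold changes of 0.01 ± 0.34 and 0.34 ± 0.78 (SE). None of the 11 antennal ionotropic receptors with a q passed. Genes of antennal support cells, 5 genes led by odorant-binding proteins, summed to 241, 254 and 211 normalized counts on CD and 401, 75.0 and 109 on SD, and their part in the *Or* and *Ir* values was not tested.

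Among taste ionotropic receptors, *Ir62a* and *Ir47a* held most of the counts. They lie in the spans of *Iml1* and *SLO2*, with means of 2298 and 2486 normalized counts, and the part of reads from these genes was not tested. *Ir62a*, required for calcium avoidance, had normalized counts of 84.4, 112 and 94.5 on CD and 92.0, 90.0 and 109 on SD, with nearly complete overlap. It passed the equivalence test within 1.5-fold (log2 fold change 0.01 ± 0.27, SE; equivalence q = 0.0467). *Ir47a* had a log2 fold change of −0.07 ± 0.45 (SE). *Ir56d*, the fatty acid receptor gene of sweet-sensing neurons, had 4, 0 and 2 counts against 2, 11 and 4, and *Ir20a* 27, 7 and 3 against 4, 8 and 1. Both overlapped between diets, and none of the 8 genes of this list with a q passed.

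*Or43b*, a receptor for fruit esters, was the other gene called practically unchanged within 1.5-fold. Its normalized counts were 108, 154 and 102 on CD and 124, 122 and 109 on SD (log2 fold change −0.02 ± 0.26, SE; equivalence q = 0.0451). All-gene calls of this kind were 40.6% of 16134 genes, against 2 of the receptors. Within 2-fold, 16 receptors passed (background 53.0%), namely *Orco*, *Or42a*, *Or43b*, *Or63a*, *Gr32a*, *Ir25a*, *Ir47a*, *Ir62a*, *Ir68a*, *Ir75a*, *Ir75b*, *Ir76a*, *Ir76b*, *ppk23*, *ppk28* and *ppk29*. For the rest the data neither showed a difference nor bounded it within 2-fold, apart from *ppk22*. Leaving out 1 library at a time gave 0 to 2 receptors within 1.5-fold, 0 without control diet replicate 1, sugar diet replicate 1 or sugar diet replicate 2. Without control diet replicate 2 only *Ir76a* passed, and without control diet replicate 3 only *Ir62a*. *Ir62a* and *Or43b* both passed only without sugar diet replicate 3, so neither call was stable.

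The pheromone odorant receptors were scarce. *Or67d*, the receptor for the male pheromone cis-vaccenyl acetate, had 6, 4 and 6 counts against 3, 0 and 8, and *Or88a* 3, 2 and 3 against 0, 1 and 1. *Or47b* and *Or65a* had at most 3 counts in any library. In the palp list, *Or42a*, an ester receptor, had a log2 fold change of −0.33 ± 0.38 (SE, q = 0.837 in DESeq2), and neither list held a called gene.

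Pickpocket channels of known function varied little between diets relative to their spread. *ppk28*, the osmosensitive channel of water-sensing neurons, had normalized counts of 80.5, 80.1 and 58.1 on CD and 73.4, 51.6 and 50.4 on SD. The diets overlapped, and its log2 fold change was −0.32 ± 0.34 (SE; 95% interval −0.98 to 0.35; DESeq2 q = 0.805). *ppk23* and *ppk29*, subunits of the contact pheromone channel of male leg neurons, had log2 fold changes of 0.08 ± 0.45 and −0.09 ± 0.47 (SE). *ppk25*, which works with them, had 12, 5 and 8 counts against 4, 14 and 1. The salt-sensing channel genes *ppk11* and *ppk19* had at most 4 counts in a library. *ppk* and *ppk26*, which form a channel of nociceptive neurons, had 27, 8 and 51 counts against 15, 20 and 22 and 4, 8 and 14 against 6, 15 and 5, respectively. None of these 8 genes passed.

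Genes that act with the receptors were also examined. Of 18 listed genes for pheromone perception, odorant transport, ion transport, signalling and receptor gene choice, 17 were analysed here, and all 17 were over the floor in every library. None was called, with log2 fold changes from −0.54 for *Poxn*, the selector gene of chemosensory bristles, to 0.29 for the irritant and heat channel gene *TrpA1* and a median of −0.16. All sugar diet values lay below all control diet values for *Poxn*, *norpA*, *Ggamma30A*, *alka* and *Tmem63* (background 6.02% of genes), and above them for none of the list. *Snmp1*, a pheromone co-receptor gene of antennal neurons, had 223, 245 and 189 normalized counts on CD and 233, 156 and 156 on SD. *acj6* and *pdm3*, transcription factors that select odorant receptors, had log2 fold changes of −0.03 ± 0.14 and 0.02 ± 0.10 (SE). Several genes of the list are not confined to chemosensory neurons, and *norpA* and *trpl* also act in photoreceptors.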

How the data were processed

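Male fly heads were profiled by translating ribosome affinity purification. Per the labels and methods, the authors discarded reads under quality 30, aligned stranded rRNA-depleted libraries with STAR to dm6 and deposited raw counts per gene (SAMtools 1.4, HTSeq and DESeq2 1.18.0 are also named; other versions are not given in the sources used here). The sense column (97.2% of stranded counts) was used. Rows naming no gene, 40.9% to 47.3% of reads, were left out. Symbols matched 17215 identifiers and not 274; coordinates follow Ensembl annotation with dm6 coordinates. *Orcokinin* was not a member.

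Diets were compared (3 against 3 libraries) with the two-sided DESeq2 1.42.0 Wald test in R 4.3.3, over all genes with a count, with Benjamini-Hochberg q under 0.1. edgeR 4.0.16 was an alternative, with TMM factors, a count filter, unstranded counts, a replicate block and each library left out. Equivalence used the DESeq2 estimate, its standard error and a normal distribution. Counting intervals (SciPy 1.17.1, exact conditional) cover counting error only. No same-diet libraries agreed within sampling noise (chi-square per degree of freedom 19.4 to 56.4), so none was taken as the same library deposited again; this does not show that they are biological replicates. The labels do not say whether replicates came from separate cultures, so p-values measure the spread between these libraries. The fits were tested on simulated data with changes placed only in genes with a mean of at least 10. That test does not cover changes in receptors under that mean.

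Members and gene lists were chosen with earlier results of these data known. Named genes are members with q under 0.1, an unadjusted p under 0.05, or no overlap at a mean of at least 10, the 5 highest per family by length-scaled level, and list members. Genes named only for detection, overlap or position were named after their values were seen.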

Additional observations from a re-analysis of the deposited data

Results flagged for a closer look

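Opposite-strand counts of the receptor genes entered none of the comparisons and were examined separately. *Ir94d* (3R, plus strand), a member of a taste receptor cluster, had 0, 1 and 0 opposite-strand counts on CD and 23, 44 and 59 on SD, a sum of 126, which stood above the control libraries. It was the 1 receptor called among 66 with a q on that strand (log2 fold change 6.90 ± 1.29, SE; DESeq2 q = 5.55e-05), where the background was 0.561% of 9619 genes. *CG17380*, whose exons overlap those of *Ir94d* on the other strand, had 0, 2 and 0 sense counts against 41, 53 and 77. It was higher on sugar (DESeq2 q = 7.34e-07). In the shared stretch, an opposite-strand read of *Ir94d* is also a sense read of *CG17380*, so the 2 results are not independent. How many reads they share was not tested. Sense counts of *Ir94d* summed to 21 on CD and 10 on SD (log2 fold change −1.06 ± 1.27, SE; DESeq2 q = 0.845).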

How the results depend on the processing

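Depth limits most receptors, and a miss here bounds little under about 10 counts. Receptors called numbered 0 under the count filter (31 receptors fitted) and 0 to 2 with each library left out. The call of *ppk22* was lost without control diet replicate 1, sugar diet replicate 2 or sugar diet replicate 3 (log2 fold change 2.20, 2.89 and 2.27). Over all fits with a library left out, its log2 fold change ran from 2.20 to 3.50. Receptors within 1.5-fold numbered 5 under the count filter, 16 with the 2-fold margin and 0 to 2 with a library left out. The median log2 fold change was −0.0223 under the count filter, −0.0374 at means of at least 10 and −0.564 to −0.0155 with a library left out. Detected receptors on the control diet numbered 74 at 1 count or more, 23 at over 10 counts, 61 unstranded and 39 to 48 from 2 libraries. On the sugar diet these were 78, 24, 62 and 42 to 47. Over all genes, leaving out a library gave 1443 to 2532 calls.

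Replicate numbers come from the titles. Same-numbered libraries did not deviate together from their diet means (correlations 0.03, −0.04 and −0.10). With 3 libraries per diet, deviations within a diet sum to 0, so these values cannot exclude a shared batch or culture. With the replicate block, DESeq2 and edgeR each called 1 receptor, 0 were within 1.5-fold, the median was −0.38, and 1842 genes were called in all. No control diet library correlated best with the sugar diet library of its own number. The highest correlation was 0.20, between control diet replicate 3 and sugar diet replicate 2. The edgeR block fit was chosen after seeing the data.

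Directions of receptors near 0 were not stable. In unstranded counts *Ir93a* was −0.0287, *Ir62a* −0.0799 and *Gr32a* 0.34. With each library left out, log2 fold changes ran from −0.57 to 0.23 for *Orco*, −0.16 to 0.66 for *Ir76b*, −0.0762 to 1.48 for *Ir93a*, −0.0691 to 0.42 for *Ir75a*, −0.0698 to 0.51 for *Ir75b*, −0.0849 to 0.12 for *Ir62a*, −0.14 to 0.17 for *Or43b*, −0.16 to 0.53 for *ppk23*, −0.41 to 0.23 for *ppk29* and −0.0734 to 0.0719 for *Gr32a*. The cause was not tested. Of the comparisons of 19 named genes with their alternatives, 191 kept direction and side of the threshold, 26 reversed, 3 lost a call and 1 gained one.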
